A study of Mus musculus with 2 samples.

Results

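The expression of 8 genes of neutrophil recruitment was followed across the cell types of the mouse cervix. They are the chemokine genes Cxcl1, Cxcl2, Cxcl3, Cxcl5, Ppbp and Cxcl15, the cytokine gene Il1b and the receptor gene Cxcr2. All 8 were found by symbol among the 31053 genes of the deposited tables. Each was read in epithelial and immune cells and set beside the share of neutrophils. A cell was counted as a neutrophil when S100a8 and S100a9 together had at least 10 unique molecular identifiers (UMIs, one per captured RNA molecule) and Csf3r, Cxcr2 and Retnlg together at least 2. Cxcr2 is thus part of that gate, and its level in gated cells is a description only.

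The cervices came from ovariectomised C57BL6/129 mice that were operated at 7 to 8 weeks of age and rested for 2 weeks. Ovariectomy removes the main source of sex hormones, and both groups carry it. Control mice were left untreated for 15 days. Progesterone mice received 100 µg of estradiol (E2) per day for 2 days, injected in oil, and then a 25 mg progesterone pellet meant to give about 1 mg per day. Estradiol, injection and pellet therefore cannot be told apart from progesterone. Each group is 1 library of 9 pooled mice, so no test between groups was possible. All intervals in square brackets are 95% intervals that cover counting error only.

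CXCR2 is the receptor by which mouse neutrophils follow the chemokines of this family toward a tissue. The ligands are small secreted proteins, several of which are switched on by NF-kB after interleukin 1 or microbial signals reach a cell. Interleukin 1 beta, the product of Il1b, is made as a precursor by activated neutrophils, monocytes and macrophages and acts on epithelium through Il1r1. In the cervix neutrophils enter the epithelium and canal and leave again as sex hormones change. RNA of these genes reports neither secreted protein nor cleaved interleukin 1 beta.

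The control library held 4579 analysed cells with 20115550 UMIs and the progesterone library 8541 cells with 38097474, at medians of 3733 and 4151 UMIs per cell. Every deposited barcode had at least 500 UMIs, and 19 barcodes were shared by the libraries. Levels are given as CPM, the UMIs of a gene scaled to the same total of UMIs in each class. The kit reads the 3′ end of each RNA, so that a UMI count does not grow with gene length and levels of different genes can be set side by side. Cell classes carry names such as luminal-like because they rest on marker genes of clusters. Cluster borders were drawn without the 8 genes, the other genes of the 7 lists described further on and mitochondrial genes.

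The 6 ligand genes lie in a single run on chromosome 5, where Cxcl5, Ppbp, Pf4, Cxcl3, Cxcl15, Cxcl1 and Cxcl2 are the 7 protein-coding genes of 147 kb, all on the plus strand (GRCm38, GENCODE annotation). The run starts with Cxcl5 at chr5:90759360-90761624 and ends with Cxcl2 at chr5:90903871-90905938. Pf4, which encodes platelet factor 4 and is not among the 8 genes, sits between Ppbp and Cxcl3. Cxcl15 spans chr5:90794534-90803067, and 88173 bases separate it from Cxcl1. Il1b is on the minus strand at chr2:129364570-129371139 and Cxcr2 on the plus strand at chr1:74153989-74161246.

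Stretches of 80 bases upstream of the transcription start are shown because the ligands differ there in a way that can be read by eye. They were taken from RefSeq promoter windows (GRCm38.p6), which matched 7 of the 8 genes. No window was found for Cxcl5, so its promoter was not searched for either motif. Capitals mark a 10-base NF-kB motif in the first 3 and the TATA motif TATAAA in the others.
Cxcl1: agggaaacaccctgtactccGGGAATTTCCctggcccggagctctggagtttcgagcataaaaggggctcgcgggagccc
Cxcl2: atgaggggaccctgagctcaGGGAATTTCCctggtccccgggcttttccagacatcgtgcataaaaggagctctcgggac
Cxcl3: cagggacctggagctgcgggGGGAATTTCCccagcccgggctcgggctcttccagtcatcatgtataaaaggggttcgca
Ppbp: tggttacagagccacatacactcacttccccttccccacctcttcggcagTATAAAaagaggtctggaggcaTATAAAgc
Cxcl15: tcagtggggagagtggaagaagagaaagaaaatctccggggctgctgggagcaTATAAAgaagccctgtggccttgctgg
Il1b: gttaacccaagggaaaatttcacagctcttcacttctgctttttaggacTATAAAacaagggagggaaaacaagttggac

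The printed stretches are chr5:90891154-90891233 for Cxcl1, chr5:90903782-90903861 for Cxcl2, chr5:90786008-90786087 for Cxcl3, chr5:90768438-90768517 for Ppbp and chr5:90794454-90794533 for Cxcl15, all plus strand. That of Il1b is chr2:129371140-129371219 on the minus strand. The NF-kB motif, searched on both strands in exactly the letters capitalised for Cxcl1, begins 71 bases upstream of the start in Cxcl1, 97 in Cxcl2 and 73 in Cxcl3. It was absent from the windows of Il1b, Ppbp, Cxcl15 and Cxcr2, which run from 250 bases before to 50 after the start. Among 27025 genes with such a window, 29 held it (0.107%). TATAAA, also searched on both strands, was found in Il1b, Ppbp, Cxcl3 and Cxcl15 and in 15.7% of all genes. Cxcl3 has both, with TATAAA 30 bases upstream.

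The ends of the transcripts differ as well. ATTTA, the core of AU-rich elements that mark many short-lived cytokine RNAs, occurs 7 times in the 592 bases of the 3′ UTR of Cxcl1, and 0.472% of 19925 genes have as many per kb. Il1b has 4 in 459 bases, Cxcl3 5 in 645 and Cxcl2 11 in 1494, densities reached by 1.33%, 2.10% and 2.51% of genes. Cxcl5 has 5 in 1111 bases, which 9.80% of genes reach. Ppbp with 1 in 656 bases, Cxcl15 with 2 in 1586 and Cxcr2 with 2 in 1818 lie near the median gene, at 1.35 per kb. These are descriptions of sequence, and no measurement of RNA decay was made here.

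Over all analysed cells 7 of the 8 genes were lower in the progesterone library and 1 was higher. Among the 14268 genes with at least 20 UMIs, 5.67% were at least 2-fold lower and 12.1% at least 2-fold higher, and 5 of the 8 were 2-fold lower. Cxcl5, an epithelial neutrophil attractant, stood at 636 CPM in control and 113 in progesterone cells, a ratio of 0.177 [0.171 to 0.183]. Cxcl1, the keratinocyte-derived chemokine, had 11.6 and 1.76 CPM, a ratio of 0.152 [0.114 to 0.200]. Cxcl2, a chemokine of activated myeloid cells, had 101 and 27.8 CPM and a ratio of 0.275 [0.255 to 0.296]. These 3 ligands were thus all lower by more than 2-fold, beyond counting error.

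Ppbp, the precursor of a CXCR2 ligand best known from platelet granules, had 152 CPM in control and 52.3 in progesterone cells. Cxcl3, a close relative of Cxcl2, had 36.3 and 16.9 CPM. Il1b had 143 and 79.5 CPM, a ratio of 0.557 [0.529 to 0.586], and Cxcr2 34.8 and 26.4 CPM, a ratio of 0.758 [0.688 to 0.836]. Both were lower by less than 2-fold. Cxcl15, a chemokine described first in lung epithelium, went the other way, with 4.87 CPM in control and 97.0 in progesterone cells, a ratio of 19.9 [16.3 to 24.6]. Counted in cells, a Cxcl15 UMI was seen in 42 control and 1104 progesterone cells. Such totals mix how many cells of a type were caught with how much RNA each held, and the sections by cell class take them apart.

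**Figure D1:**
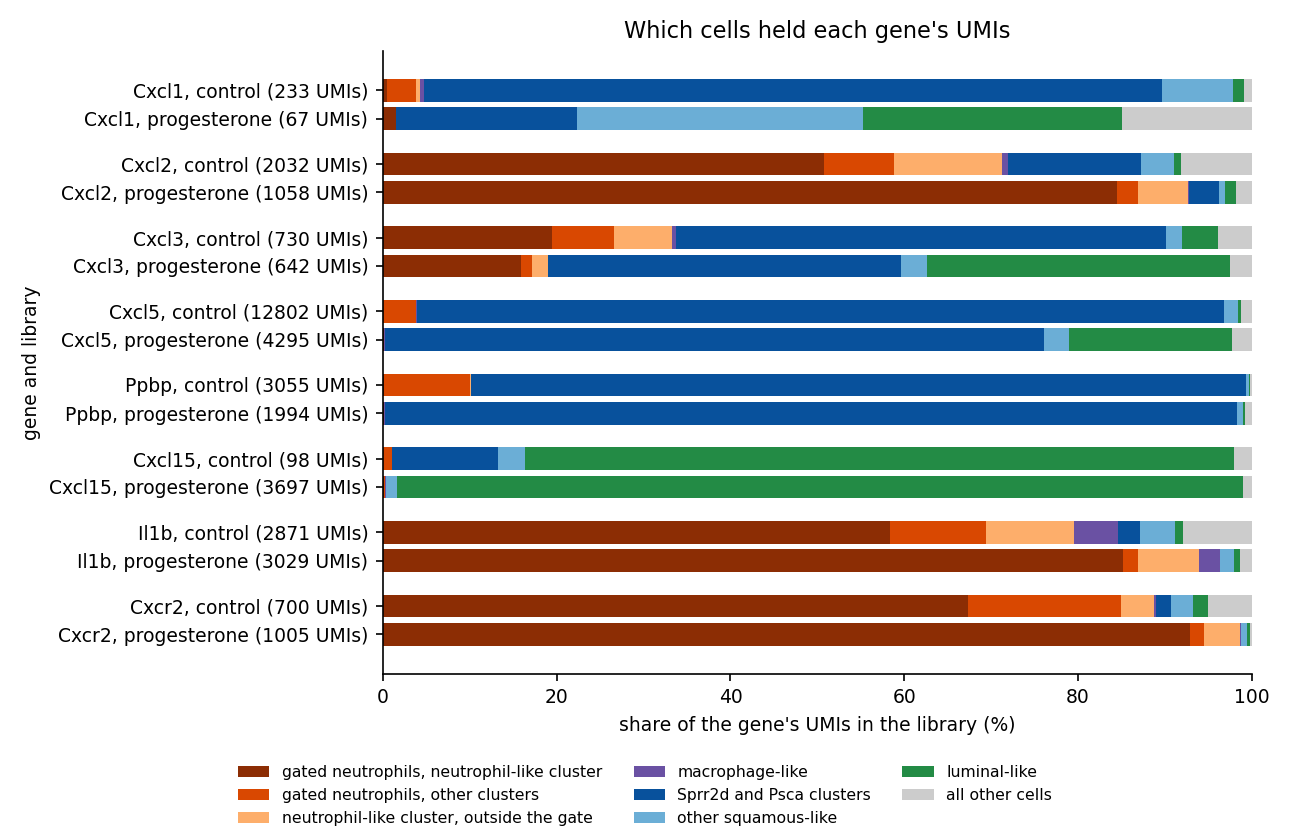
Share of each gene's UMIs (x axis, %) held by each cell class, 1 bar per gene and library, with the gene's UMI total in brackets. Cxcl5 and Ppbp lay mostly in the Sprr2d and Psca clusters in both libraries, Cxcl15 in luminal-like cells, and Cxcl2, Il1b and Cxcr2 mostly in neutrophils.

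Neutrophils were 371 of 4579 control cells, 8.10% [7.33 to 8.93], and 394 of 8541 progesterone cells, 4.61% [4.18 to 5.08]. Most of the gap came from gated cells that did not cluster with neutrophils. In the neutrophil-like cluster lay 263 control and 384 progesterone gated cells, 5.74% [5.09 to 6.46] and 4.50% [4.07 to 4.96] of their libraries. The other 108 control cells (2.36%) and 10 progesterone cells (0.117%) sat in other clusters. Those 108 held a median of 5146 UMIs against 586 for control gated cells in the cluster, and 22437 CPM of the squamous keratins Krt5 and Krt14 against 2102. Whether they are neutrophils joined to squamous cells, or squamous cells with neutrophil RNA, was not tested.

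Without Cxcr2 in the gate the shares were 5.61% and 3.73%, with both minimum counts doubled 4.59% and 3.55%, and for the whole neutrophil-like cluster 7.32% and 5.20%. After each cell had been thinned at random to 500 UMIs, the shares were 5.53% and 3.83%. Control was the higher library in each. Around the border, 86 control and 33 progesterone cells were let in with exactly 2 receptor UMIs, and 101 and 31 that passed the S100 count were left out with 1. Of the gated cells in the neutrophil-like cluster, 55.9% of control and 9.90% of progesterone cells had fewer than 600 UMIs. Control neutrophils thus lay closer to the deposited minimum of 500 UMIs, and how many fell under it on either side was not tested.

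**Figure D2:**
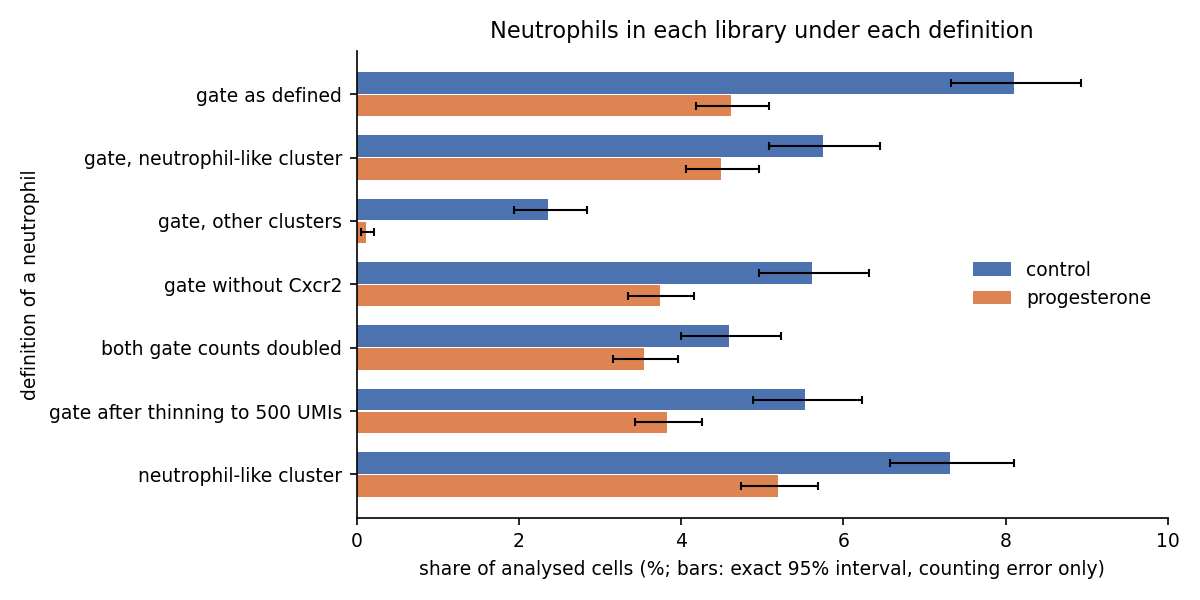
Share of analysed cells (x axis, %) counted as neutrophils under 7 definitions, control in blue and progesterone in orange, with exact 95% intervals as bars. The control share is above the progesterone share under each definition, and the gap is widest in relative terms for gated cells of other clusters, at 2.36% and 0.117%.

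In neutrophils the 3 members with the most RNA were Il1b, Cxcl2 and Cxcr2. Within the neutrophil-like cluster Il1b stood at 10151 CPM in control and 7211 in progesterone gated cells, a ratio of 0.710 [0.668 to 0.756]. Cxcl2 stood at 6244 and 2499 CPM, a ratio of 0.400 [0.365 to 0.438], and Cxcl3 at 860 and 285 CPM, a ratio of 0.331 [0.254 to 0.431]. Cxcr2 had 2853 and 2610 CPM, a ratio of 0.915 [0.818 to 1.02] that describes cells chosen in part for this gene. Both ligands were over 2-fold lower with progesterone and Il1b was lower by less than 2-fold. Of 2704 genes with at least 20 UMIs in these cells, 5.66% were at least 2-fold lower and 9.58% higher.

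Over all gated cells the same ratios point the other way, at 2.65 [2.50 to 2.81] for Il1b, 1.54 [1.41 to 1.68] for Cxcl2, 3.20 [2.89 to 3.56] for Cxcr2 and 1.14 [0.892 to 1.45] for Cxcl3. The 108 deep control cells of other clusters weigh on these sums, since they held 635914 UMIs against 165110 in the control gated cells of the cluster, with Il1b at 500.1 CPM, Cxcl2 at 259 and Cxcr2 at 195. Over all gated cells 17.8% of 5759 genes were at least 2-fold higher and 33% at least 2-fold lower, and no direction for neutrophils is drawn from these sums.

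Counting cells instead of molecules gave the same order as the cluster. After thinning to 500 UMIs, a Cxcl2 UMI was seen in 70.3% [64.4 to 75.8] of control gated cells of the cluster and in 43.2% [38.2 to 48.4] of progesterone ones, where 193 of 263 and 196 of 384 cells had one before thinning. Cxcl3 was seen in 22.1% [17.2 to 27.6] and 11.5% [8.45 to 15.1], and Il1b in 92.4% [88.5 to 95.3] and 83.6% [79.5 to 87.2]. Cxcr2 was seen in 75.3% and 74.2%. Among cells with Il1b, 71.6% of control and 44.5% of progesterone cells also had Cxcl2. In macrophage-like cells thinned alike, a class that should have little neutrophil RNA, Cxcl2 was seen in 1.97% of control and in 0 of 154 progesterone cells, which allows up to 1.95%. The neutrophil shares were far above these. The part of free RNA in either class was not tested.

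Neutrophils were poor in the remaining ligands. Cxcl1 had 1 UMI in the 263 control and 1 in the 384 progesterone gated cells of the cluster. Cxcl5 had 8 and 6 UMIs there, Ppbp 4 and 3, and Cxcl15 0 and 3. Ppbp UMIs in gated cells of the control library came to 306, and 302 of them lay outside the cluster, in 7 cells. By cluster, then, neutrophils were a source of Cxcl2, Cxcl3 and Il1b RNA and of almost no Cxcl1, Cxcl5, Ppbp or Cxcl15 RNA.

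Macrophage-like cells, with 203 control and 154 progesterone cells, held Il1b at 428 and 168 CPM, a ratio of 0.392 [0.292 to 0.522]. Both levels lie far under those of neutrophils in the same library, and macrophage-like cells held 5.09% and 2.44% of all Il1b UMIs. After thinning to 500 UMIs, Il1b was seen in 11.8% [7.72 to 17.1] of control and 9.74% [5.55 to 15.6] of progesterone macrophage-like cells (unthinned 18.7% and 24.7%), so that the share of cells does not follow the CPM. The summed neutrophil markers in these cells were 560 and 163 CPM, lower with progesterone as well, and their part in the Il1b difference was not tested. Il1rn, the interleukin 1 receptor antagonist, had 156 and 27.2 CPM in the same cells, and Il1r2, the decoy receptor, 61.6 and 15.9. Of the ligands, Cxcl2 had 12 UMIs in control and 1 in progesterone macrophage-like cells, and the other 5 had 6 or fewer in either library. Among 4993 genes tested in this class, 5.85% were at least 2-fold lower and 4.99% higher.

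**Figure D3:**
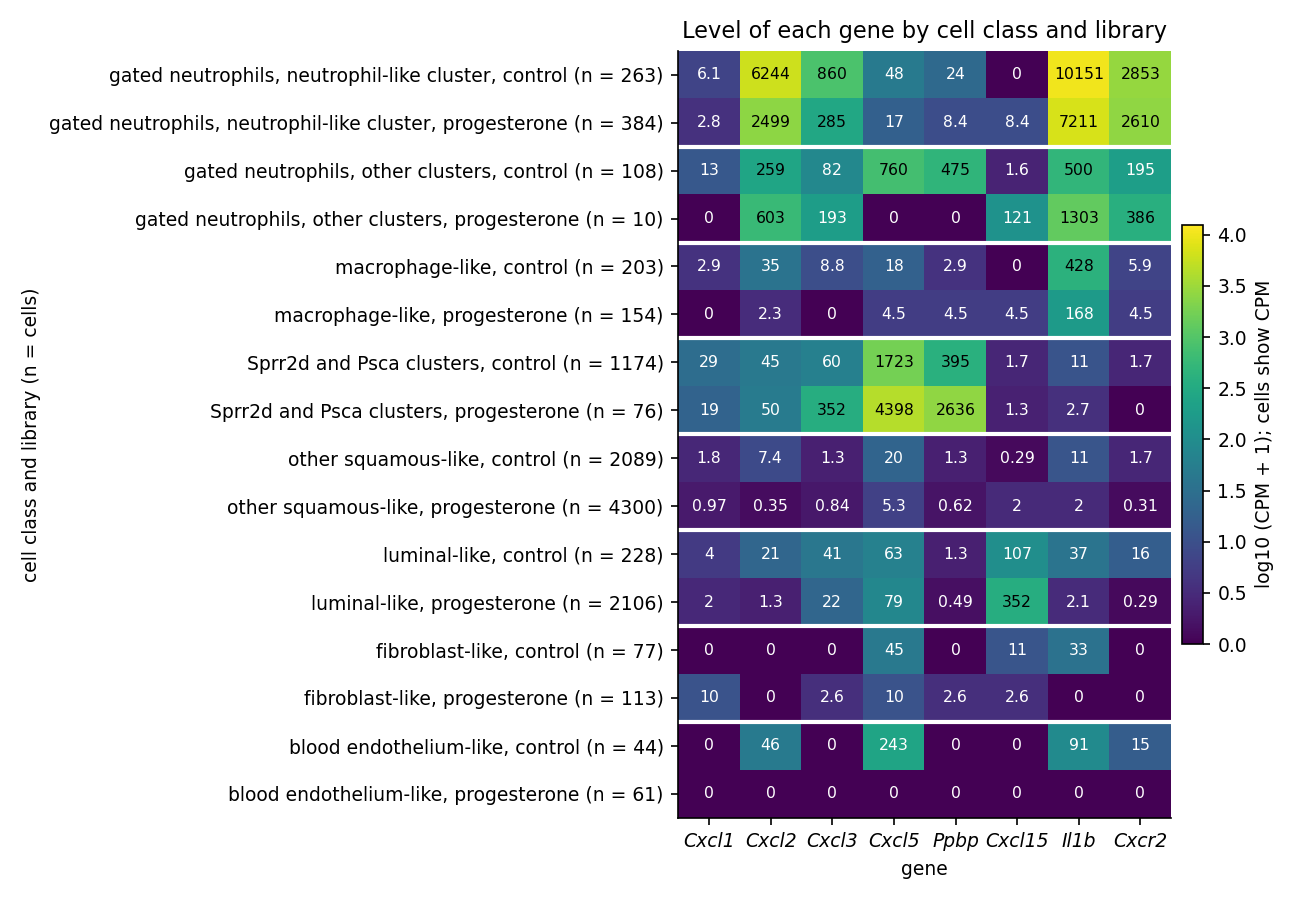
Level of each of the 8 genes (columns) in 8 cell classes of each library (rows), coloured by log10 (CPM + 1), with the CPM printed in each field. Il1b and Cxcl2 are highest in gated cells of the neutrophil-like cluster, Cxcl5 and Ppbp in the Sprr2d and Psca clusters and Cxcl15 in progesterone luminal-like cells.

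Cxcl5 and Ppbp RNA lay mostly in a part of the epithelium that was small only in the progesterone library. Of the 26 clusters, 2 had both Sprr2d, a cornified envelope gene, and Psca among their 10 leading genes. They are described by these genes, since one was named suprabasal squamous-like and the other was tied between suprabasal squamous and neutrophil markers. This grouping was set after the clusters were seen. Cxcl5 was then among the leading genes of the former and Ppbp among those of the latter. That both genes lie there is thus a description only. Together the 2 clusters held 1174 control cells, 25.6% of the library, and 76 progesterone cells, 0.890%. Cxcl5 UMIs lay there to 92.9% [92.5 to 93.4] in control, and to 75.9% [74.6 to 77.2] in the progesterone library. For Ppbp the shares were 89.2% and 98.0%, for Cxcl3 56.4% and 40.7%, and for Cxcl1 85.0% and 20.9%. In control these cells were the main site of 4 of the 6 ligands.

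Per UMI of these cells Cxcl5, Ppbp and Cxcl3 were higher with progesterone. Cxcl5 had 1723 CPM in control and 4398 in progesterone cells, a ratio of 2.55 [2.46 to 2.65]. Ppbp had 395 and 2636 CPM, a ratio of 6.68 [6.30 to 7.08], and Cxcl3 59.7 and 352 CPM, a ratio of 5.90 [5.03 to 6.90]. Cxcl2 at 45.2 and 49.9 CPM, and Cxcl1 at 28.7 and 18.9, had intervals that include 1. In these clusters 7.59% of 10148 genes were at least 2-fold higher and 9.21% lower, and 3 of the 5 ligands tested were higher. Summed neutrophil markers were 3088 CPM in control and 7163 in progesterone cells, higher with progesterone like the 3 ligands. The sum includes S100a8 and S100a9, and not every marker followed it. Csf3r had 3.48 CPM from 24 UMIs in control and 1.35 CPM from 1 UMI in progesterone cells. Of the 12 markers, Mmp8 was at 0 in the 6904214 control UMIs, and Retnlg, Mmp9, Mmp8, Clec4d, Hdc and Trem1 were at 0 in the far fewer 741619 progesterone UMIs. The part of neutrophil RNA in these ligand levels was not tested. The library totals of Cxcl5 and Ppbp were lower with progesterone while the cells that held them were a far smaller share of that library. In such sums fewer cells and less RNA per cell cannot be told apart, which the values per class resolve in part.

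The size of these ratios depends on how the cells are grouped. With each library clustered apart, the control cells with both leading genes were 8.19% of the library, and the log2 ratios were 0.23 for Cxcl5, 1.37 for Ppbp and 1.30 for Cxcl3, where the joint clusters gave 1.35, 2.74 and 2.56. Within the smaller of both clusters, which held 84 control and 16 progesterone cells outside the gate, Cxcl5 stood at 7849 and 8555 CPM, Ppbp at 3738 and 7926, and Cxcl3 at 459 and 984. In the larger one, with 1090 and 60 cells, Cxcl5 stood at 1166 and 2616 CPM and Ppbp at 91.0 and 368. In the smaller cluster Cxcl5 differed little in size, although the intervals [7622 to 8081] and [8175 to 8948] do not overlap.

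In the progesterone library Ppbp was the most concentrated of the 8 genes, and 3 cells held 0.5 of its 1994 UMIs, 10 cells held 87.7% and the richest single cell held 519. In control 20 cells held 0.5 of 3055 Ppbp UMIs and 10 cells held 32.8%, while 8 cells held 0.5 of the 98 UMIs of Cxcl15 and 18 cells 0.5 of the 233 of Cxcl1. For Cxcl5, 0.5 of the UMIs lay in 82 control and 12 progesterone cells. The progesterone Ppbp level therefore rests on very few cells, which its counting interval does not show.

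Ppbp and Cxcl3 were seen more often in cells with Cxcl5 than in cells without it. After thinning to 2000 UMIs, Cxcl5 was seen in 44.6% [41.6 to 47.6] of the 1093 control cells of these clusters that are deep enough and in 67.6% [55.5 to 78.2] of the 71 progesterone cells (unthinned 53.1% and 72.4%). Ppbp was seen in 11.0% and 33.8% and Cxcl3 in 6.22% and 21.1%. Of control cells with Cxcl5, 22.6% also had Ppbp, against 1.65% of those without Cxcl5. In progesterone cells the shares were 47.9% and 4.35%. Of control cells with Ppbp, 35.0% had Cxcl3, against 2.67% of those without. Cxcl1 was seen in 4.93% of control cells with Cxcl5, in 1.49% of those without, and in 0 of the 71 progesterone cells. These shares pool both clusters, which differ. In control, Cxcl5 was seen in 41.1% and Ppbp in 6.10% of the larger cluster, and in 89.6% and 75.3% of the smaller. The part of that difference in the shared cells was not tested. In other squamous-like cells Cxcl5 was seen in 3.49% and 0.896% and Ppbp in 0.263% and 0.0995%.

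Luminal-like cells, named by markers of the columnar mucus-producing cells of the canal lining, held most of the Cxcl15 RNA. They were 228 control cells (4.98%) and 2106 progesterone cells (24.7%), and held 81.6% [72.5 to 88.7] and 97.5% [96.9 to 97.9] of Cxcl15 UMIs. The class level was 107 CPM in control and 352 in progesterone cells, a ratio of 3.31 [2.65 to 4.18]. The 19.9-fold difference of the whole libraries thus comes with both a larger share of luminal-like cells and a 3.31-fold higher level in them. In this class 15.4% of 11236 genes were at least 2-fold higher with progesterone and 7.24% lower.

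Different clusters made up the class in each library. In control, 213 of the luminal-like cells outside the gate lay in a cluster led by Psca, Tff1 and Olfm4, with Cxcl15 at 99.1 CPM. In the progesterone library 891 lay in a cluster led by Agr2 and Tff1 with 254 CPM, and 928 in a cluster led by Clca1, a goblet cell product, with 509 CPM. The 14 progesterone cells of the first cluster had 99.1 CPM [36.4 to 216], from 6 UMIs, close to the control value. After thinning to 2000 UMIs Cxcl15 was seen in 11.2% [6.65 to 17.3] of 152 control luminal-like cells and in 37.7% [35.4 to 40.0] of 1777 progesterone ones (unthinned 11.4% and 48.9%). It was seen in 49.1% of the Clca1 cluster and in 27.8% of the Agr2 and Tff1 cluster. Other squamous-like cells had it in 0.0658% and 0.348%.

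The other ligands were low in luminal-like cells. Cxcl5 had 62.6 and 78.7 CPM, a ratio of 1.26 [0.936 to 1.72] that includes 1, and its progesterone luminal-like cells held 18.7% of the library's Cxcl5 UMIs. This ratio turned to a log2 value of −4.97 when libraries were clustered apart, since 322 control cells with Sprr2d and Psca as their leading genes were then named luminal-like. Cxcl3 had 41.3 and 21.9 CPM, a ratio of 0.530 [0.363 to 0.799]. Ppbp had 1 and 5 UMIs, and Cxcl1 3 and 20. Among progesterone cells with Cxcl15, 11.6% also had Cxcl5, and 7.59% of those without. Cxcl3 was seen in 2.84% [1.72 to 4.39] of the cells with Cxcl15 and in 3.79% [2.75 to 5.09] of those without.

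Il1b, Cxcl2 and Cxcr2 were all lower in progesterone luminal-like cells, at 37.3 and 2.15 CPM, 21.3 and 1.27 CPM, and 16.0 and 0.293 CPM. These are the genes that neutrophils hold at the highest levels. The summed neutrophil markers of the class moved with them, from 391 to 53.6 CPM, with 12 and 11 of 12 markers detected and Mmp8 at 0 in progesterone cells. The part of neutrophil RNA in these values was not tested.

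**Figure D4:**
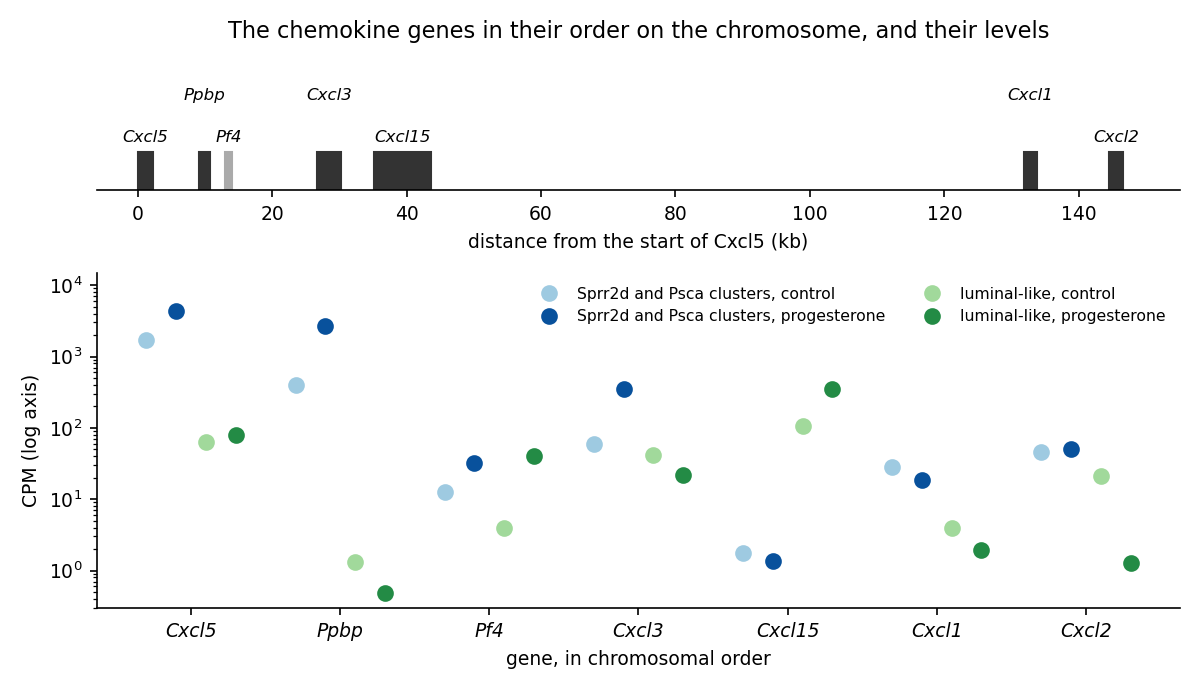
Upper panel: the 7 genes of the run on chromosome 5 as boxes, by distance from the start of Cxcl5 (kb), with Pf4 in grey. Lower panel: CPM on a log axis in the Sprr2d and Psca clusters (blue) and luminal-like cells (green) of each library; Cxcl5 and Ppbp are high in the former and Cxcl15 in the latter, although Cxcl3 beside Cxcl15 is seen in both.

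Squamous-like cells outside the Sprr2d and Psca clusters were 2089 control and 4300 progesterone cells, the largest class, and held little of any ligand. Cxcl5 had 20.1 and 5.28 CPM, a ratio of 0.262 [0.208 to 0.330], Il1b 11.0 and 2.02 CPM, and Cxcl2 7.42 and 0.352 CPM. Summed neutrophil markers were 146 and 37.0 CPM in the same cells. Their part in the Il1b and Cxcl2 difference was not tested. Cxcl1 had 19 and 22 UMIs, a ratio of 0.529 [0.273 to 1.03]. Of 12495 genes 6.57% were at least 2-fold lower here and 12.1% higher. Fibroblast-like and blood endothelium-like cells had at most 16 UMIs of any of the 8 genes in a library.

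**Figure D5:**
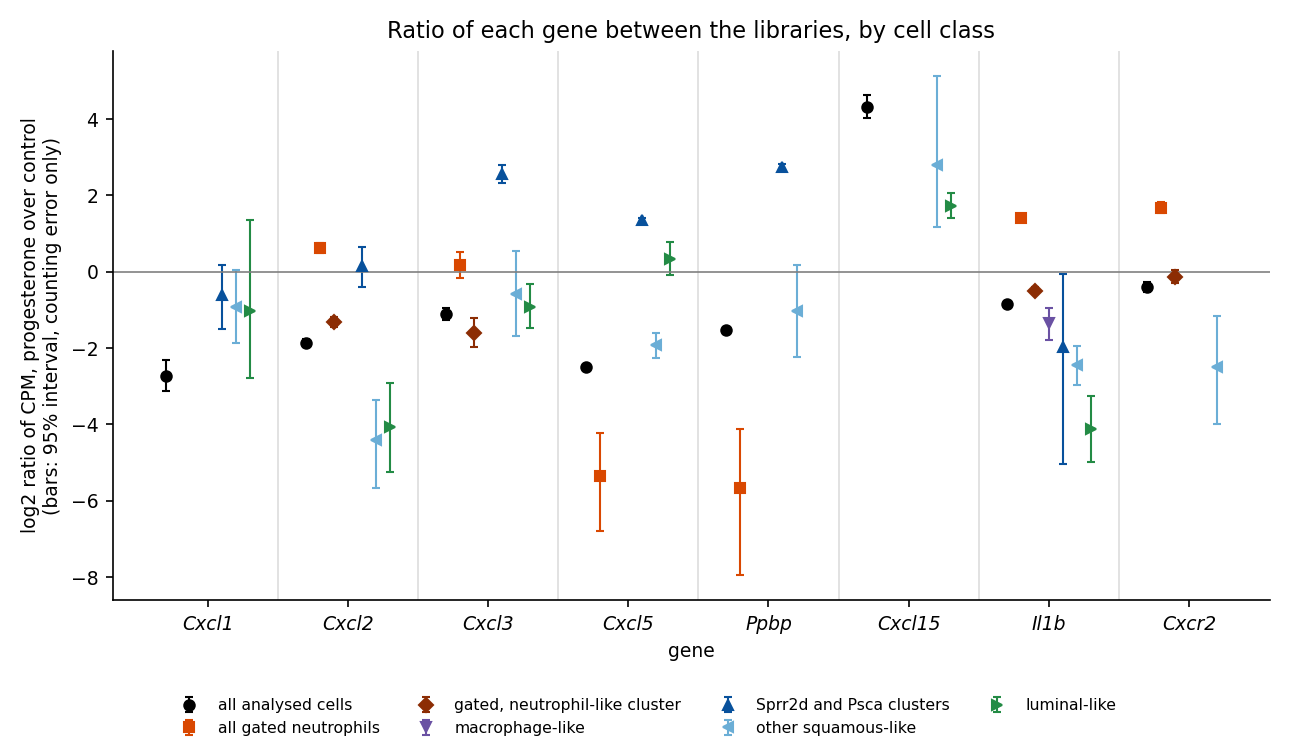
Log2 ratio of CPM, progesterone over control (y axis), for each gene and cell class with at least 20 UMIs over both libraries and none at 0, with 95% counting intervals as bars. For Il1b and Cxcl2 the ratio over all gated neutrophils lies above 0 and that of gated cells in the neutrophil-like cluster below 0, and for Cxcl5 and Ppbp the Sprr2d and Psca clusters lie above 0 while the whole libraries lie below.

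The wider pathway was read from 7 lists. Of 18 genes of the interleukin 1 axis, all had at least 20 UMIs over all cells, 6 were at least 2-fold lower and 0 at least 2-fold higher, against 5.67% and 12.1% of all genes, with a median log2 ratio of −0.55 against 0.15 for all genes tested. The 6 were Il1a, Il1rn, Nlrp3 and the interleukin 36 genes Il1f6, Il1f8 and Il1f9, cytokines of surface epithelium. Il1f6 had 34.9 and 2.05 CPM, a ratio of 0.0587 [0.0458 to 0.0742]. Most of its UMIs lay in the Sprr2d and Psca clusters (653 of 702 in control and 73 of 78 in progesterone cells), at 94.6 and 98.4 CPM there. Like Cxcl5, it was lower in the whole library and not in the cells that held it. Of 15 genes of this axis tested in those clusters, Il1a (14.6 and 35.1 CPM) and Il1rn (26.5 and 80.9 CPM) were at least 2-fold higher. Il1b and Pycard were at least 2-fold lower there, where 7.59% of all genes tested were higher and 9.21% lower.

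In other squamous-like cells, Csf3, the growth factor that drives neutrophil production, had 3.47 CPM in control and 24.9 in progesterone cells, a ratio of 7.18 [5.13 to 10.4]. It is the only gene of the 4 tested from the neutrophil growth and interleukin 17 list that was 2-fold different there. No gene on that list was 2-fold lower, where 12.1% of all genes tested were higher and 6.57% lower. Cells of the Sprr2d and Psca clusters had Csf3 at 33.6 CPM from 232 UMIs in control. With progesterone they had 24.3 CPM from 18 UMIs. In luminal-like cells Csf3 had 74.6 and 41.3 CPM, a ratio of 0.554 [0.419 to 0.746]. Over all cells it had 16.8 and 27.9 CPM. The only member ligand higher in other squamous-like cells was Cxcl15, with 3 and 46 UMIs, at 0.289 and 2.02 CPM. The part of RNA from luminal-like cells in these counts was not tested.

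Among neutrophil receptors, 8 of 9 genes had at least 20 UMIs in gated cells of the neutrophil-like cluster, and 0 were 2-fold different in either direction, where 5.66% of all genes tested were lower and 9.58% higher. The gate chose these cells in part by Cxcr2 and Csf3r, which are on this list, so that their levels are a description only. Csf3r, the receptor for the product of Csf3, had 1920 and 1741 CPM there. Of 14 NF-kB induced regulators in the same cells, 4 were at least 2-fold lower and 0 higher, against 5.66% and 9.58% of all genes tested, with a median log2 ratio of −0.72 against −0.01 for all genes. Nfkbia, the inhibitor that NF-kB induces, had 2077 and 908 CPM, a ratio of 0.437 [0.375 to 0.510]. The other 3 were Nfkb2, Icam1 and Tnip1, with 10 to 20 UMIs each in a library.

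Of the other chemokines in these neutrophils, Ccl3 had 376 and 67.1 CPM, a ratio of 0.179 [0.107 to 0.290], and Ccl4 587 and 224 CPM, a ratio of 0.381 [0.279 to 0.517]. Both attract monocytes and lymphocytes. Cxcl10, an interferon-induced chemokine, had 0 control and 60 progesterone UMIs. With the control count set to a floor of 3 the ratio was 9.23, and the 95% lower limit on the ratio of both counts was 7.28. Of 11 tested genes of the dissociation and early response list, which tracks stress during tissue digestion, 1 was at least 2-fold lower (Jun, 587 and 263 CPM) and 0 were higher, against 5.66% and 9.58% of all genes tested. The median log2 ratio of this list was −0.46 against −0.01 for all genes, lower with progesterone like that of the chemokines. The part of digestion stress in the chemokine values was not tested.

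In macrophage-like cells Ccl17, which attracts T cells, had 684 and 95.3 CPM. Cxcl9 and Ccl8 had 2 and 43, and 3 and 52 UMIs. In fibroblast-like cells Cxcl12, the ligand of Cxcr4 that holds neutrophils in bone marrow, had 1049 and 385 CPM, a ratio of 0.367 [0.281 to 0.480], where 8.72% of 3155 genes were at least 2-fold lower and 9.67% higher. In other squamous-like cells it had 2 and 179 UMIs, 0.193 and 7.87 CPM, a ratio of 40.9 [11.2 to 340.2]. Cxcl17, a mucosal chemokine, was highest in luminal-like cells at 248 and 370 CPM, a ratio of 1.49 [1.29 to 1.74].

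Over 37 sums of cluster and library, from 23 clusters with at least 30 cells, the genes most like each member were ranked by Pearson r of log2 (CPM + 10) among 10585 genes. These are descriptions over sums that share libraries. Cxcl5 and Ppbp were most like Il1f6, at 0.890 and 0.975, Cxcl1 most like Ppbp at 0.823, and Cxcl3 most like Smox at 0.906. Cxcl2 was most like S100a8 at 0.956, Il1b most like Lilr4b at 0.965 and Cxcr2 most like Trem1 at 0.980. Cxcl15 was most like Chad at 0.972. Between members, r was 0.936 for Il1b with Cxcr2, 0.921 for Cxcl2 with Cxcr2, 0.851 for Cxcl5 with Ppbp and −0.01 for Cxcl5 with Cxcl15. Cxcl3 was close to both groups, with 0.854 to Cxcl2 and 0.667 to Ppbp.

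Reads of 90 bases cannot always tell Cxcl2 from Cxcl3. Of the windows of that length in their transcripts, 86 are common to both, 3.84% of those of Cxcl2 and 2.35% of those of Cxcl3. Cxcr2 shares 6 with Gm26764, and the other 5 members none with another gene.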

How the data were processed

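In all 2 single-cell libraries of mouse cervix were used, 1 per group. The deposited values are raw UMI counts per gene and barcode made by the authors with Cell Ranger 3.0.2 on mm10, per the submitters' processing notes. No barcode had under 500 UMIs. Barcodes under 200 detected genes or over 20% mitochondrial UMIs were dropped. Scrublet, run per library in scanpy 1.11.5, scored doublets, and the highest-scoring 181 control and 680 progesterone barcodes were removed, a share that grew with library size. Cells were clustered jointly (2000 variable genes, 30 components, 15 neighbours, Leiden resolution 1). The 99 list genes were kept out. Names come from fixed marker lists for 19 classes (score at least 0.75, lead at least 0.5, 3 detected markers). These thresholds, and the rule for the Sprr2d and Psca clusters, were chosen once clusters were known. Gated neutrophils formed a class of their own.

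Levels have exact Poisson, shares Clopper-Pearson and ratios conditional binomial 95% intervals. They cover counting error only, and pooled mice give no spread. A gene was tested for a 2-fold difference with at least 20 UMIs. A count of 0 was set to a floor of 3. All 8 members are named. List genes are named as the 5 highest and 5 lowest of a class by the interval bound nearest to 1, and the like patterns as the 3 with the highest r. Other list genes given, such as Nfkb2, Icam1, Tnip1, Csf3r and Jun in neutrophils, were chosen after their values were seen. Of 100 list genes, 99 were used. The members and lists were chosen with earlier results of these data known. The ratio calculation was tested on simulated data. Alternatives were other cell filters, no doublet removal, other clusterings, gates, scalings and depths.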

Additional observations from a re-analysis of the deposited data

How the results depend on the processing

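Of 587 alternative values for 55 results, 400 moved less than their counting interval or 1.5 times for a count, 178 moved more and 9 turned direction. A turn was counted only where the interval of the main log2 ratio excludes 0. Changes of sign from other ratios are among the 400 and 178. Cxcl3 in gated neutrophils kept its sign in 5 of 11 alternatives and Cxcl5 in luminal-like cells in 9 of 11. All values here are log2 ratios of progesterone over control unless named as shares or counts, and no cause was tested. All 8 genes kept their direction over all cells in 11 of 11 alternatives. Other clusterings and gates leave the set of all cells as it was, so these ratios could not move there. The neutrophil share was higher in control in 12 of 12, although other clusterings and scalings could not move it. Values fixed in this way are counted among the 400. Il1b in macrophage-like cells ranged from −1.64 to −1.15, and Cxcl3, Cxcl5 and Ppbp in the Sprr2d and Psca clusters stayed above 0. With 1 library per group, no replicate could be left out. No paired analysis was possible because the groups share fewer than 2 replicate numbers. Depth limits neutrophils most, at medians near the 500 UMI minimum.

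In gated neutrophils the ratios over all gated cells were 0.62 for Cxcl2, 0.19 for Cxcl3, 1.68 for Cxcr2 and 1.41 for Il1b, with 31 list genes 2-fold higher and 10 lower. Of all 5759 genes tested in these cells, 17.8% were higher and 33% lower. Shares over all genes were not computed under the other settings. Counts of list genes in this section therefore only compare settings and are no result about the lists. Gating after thinning to 500 UMIs gave −1.07, −1.31, 0.0052 and −0.34, 3 list genes higher and shares of 5.53% and 3.83%. Gated cells of the neutrophil-like cluster only gave −1.32, −1.59, −0.13 and −0.49, 3 list genes higher and a control share of 5.74%. Neutrophils by cluster gave −1.36, −1.68, 0.038 and −0.43, 4 list genes higher and shares of 7.32% and 5.20%. The thinned gate and the cluster-only gate were added once the data had been seen. With any of these 3, Ppbp in the Sprr2d and Psca clusters was 2.61. The mean of each cell's CPM gave −0.80, −1.14, 0.35 and −0.040, with 3 list genes higher. It also gave −1.88 for Cxcl3, −3.00 for Cxcl5, −1.02 for Il1b and −2.55 for Ppbp over all cells, 2.05, 1.07 and 2.31 for Cxcl3, Cxcl5 and Ppbp in the Sprr2d and Psca clusters, and 2.21 for Cxcl15 in luminal-like cells. Without Cxcr2 in the gate the shares were 5.61% and 3.73%. The stricter gate gave 0.42 for Cxcl2, 1.40 for Cxcr2 and 1.17 for Il1b, with shares of 4.59% and 3.55%.

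Without doublet removal, gated neutrophils gave 0.30 for Cxcl2, 1.31 for Cxcr2 and 1.09 for Il1b, and Cxcl5 in the Sprr2d and Psca clusters was 1.28. Scaling without mitochondrial, ribosomal and the 20 most abundant genes gave −1.75 for Cxcl2, −2.38 for Cxcl5, −0.73 for Il1b and −1.42 for Ppbp over all cells, 0.34, 1.40 and 1.12 for Cxcl2, Cxcr2 and Il1b in gated neutrophils, and 1.16 and 2.55 for Cxcl5 and Ppbp in the Sprr2d and Psca clusters. The stricter cell filter gave −0.85 for Cxcl3, −2.39 for Cxcl5, −0.61 for Il1b and −1.40 for Ppbp over all cells, 1.62, 0.92, 2.54 and 2.71 for Cxcl2, Cxcl3, Cxcr2 and Il1b in gated neutrophils, and 1.67, 0.63 and 1.79 for Cxcl3, Cxcl5 and Ppbp in the Sprr2d and Psca clusters. It left 4 list genes higher there, against 10, and neutrophil shares of 3.42% and 1.84%.

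At Leiden resolution 2, Cxcl3, Cxcl5 and Ppbp in the Sprr2d and Psca clusters were 2.16, 0.98 and 2.31, and Cxcl5 in luminal-like cells −0.17. With libraries clustered apart they were 1.30, 0.23 and 1.37, with 5 list genes higher, and Cxcl5 and Cxcl15 in luminal-like cells were −4.97 and 3.58, with 33 list genes lower against 9. With no filter on low counts, list genes higher numbered 23 in luminal-like cells (11 with it) and 18 in other squamous-like cells (10). Those lower numbered 20 in the Sprr2d and Psca clusters (6), 20 in gated neutrophils (10), 24 in luminal-like cells (9) and 25 in other squamous-like cells (12).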

Other observations

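Pf4, the gene between Ppbp and Cxcl3, was read in different cells in each library. In control most of its UMIs lay in macrophage-like cells (92 UMIs, 269.98 CPM) and in the larger Sprr2d and Psca cluster (77 UMIs, 12.2 CPM), and luminal-like cells held 3. In the progesterone library luminal-like cells held 409 of 579 UMIs, at 40.0 CPM, 332 of them in the Agr2 and Tff1 cluster at 62.2 CPM and 67 in the Clca1 cluster at 15.8 CPM. Cxcl15 had the opposite order, with the Clca1 cluster higher. Among progesterone luminal-like cells thinned to 2000 UMIs, Pf4 was seen in 7.31% [5.46 to 9.55] of 670 cells with Cxcl15 and in 4.16% [3.06 to 5.50] of 1107 without. Macrophage-like cells of that library had Pf4 at 127 CPM from 56 UMIs. Pf4 was chosen for its place on the chromosome, after its values were seen.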
